A study of Arabidopsis thaliana with 9 samples.

Results

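The C and S1 groups of basic leucine zipper (bZIP) transcription factors were followed across 9 RNA sequencing libraries of Arabidopsis thaliana seedlings. The 9 members are 5 of the S1 group (bZIP1, bZIP2, bZIP11, bZIP44 and bZIP53) and 4 of the C group (bZIP63, bZIP9, bZIP10 and bZIP25). They were taken by their locus identifiers from count tables of 32678 gene rows. Of the 9 members, 4 had enough counts to be tested, all of the C group, and the 5 S1 members were listed at 0 in every library.

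A bZIP factor holds DNA as a dimer, and factors of the C and S1 groups pair with one another. The pairs act when sugar or energy is short. The kinase SnRK1, which is active in starved cells, phosphorylates bZIP63 and so changes its choice of partners. Targets of the network include genes for asparagine synthesis and for the breakdown of proline and branched-chain amino acids. The transcripts of S1 genes also carry a short upstream open reading frame (uORF) whose peptide stalls ribosomes when sucrose is high, so that less of the factor is made.

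The plants were 7-day-old seedlings, about 10 pooled per sample, kept in constant light at 23 °C on 2.5 mM ammonium succinate and 0.5% sucrose. The icpk group was a cpk10,30,32 triple mutant carrying CPK10(M141G)-DHA, a form of the calcium-dependent protein kinase CPK10 that the small molecule 3MBiP can block. It received 10 mM KNO3 for 15 min. The wild type groups received 10 mM KNO3 or 10 mM KCl for 15 min, and each of the 3 groups had 3 libraries. A pretreatment of 2 min with 10 µM 3MBiP is described in the protocols, but no label assigns it to samples, so mutation, transgene and inhibitor cannot be told apart. No icpk library with KCl was analysed here. The labels do not say that the replicates came from separate cultures, so p-values speak only to the spread among these 9 libraries, part or all of which may be technical.

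Gene counts ranged from 5987352 in wild type KCl replicate 3 to 19564785 in wild type KCl replicate 1. Records aligned at more than 1 place took 23.8% to 80.5% of a library, with the highest share in wild type KCl replicate 3. In icpk seedlings CPK30 and CPK32 were lower than in wild type with KNO3 by log2 fold changes of -3.02 and -3.27, while CPK10, whose counts cannot separate the gene from the transgene, was higher by 0.83. NIR1, the nitrite reductase gene used as a check of the treatment, was higher with KNO3 than with KCl in wild type by 3.24. The libraries held whole seedlings, and all 13 root markers and all 15 shoot photosynthesis markers were tested. In bulk samples, fewer cells of a type and less RNA per cell cannot be told apart.

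Annotated uORFs set the S1 members apart from the C members. The RefSeq annotation of assembly TAIR10.1 marks 1 uORF in each of the 5 S1 members and none in the 4 C members. The last 30 bases of each are shown because this end encodes the part of the peptide that is alike between members. They read 5′ to 3′ on the gene's strand, with the stop codon in capitals.
bZIP1: attcttcattggttttacgttatctctTGA
bZIP2: ttcctctactggttttacaacgtttcaTGA
bZIP11: ttcctttactggctttactatgtctcaTGA
bZIP44: tttctctactggttctatgttttctcaTAA
bZIP53: tacctctactacacctacgttttctcaTGA

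These stretches lie at chr5:20052105-20052134 on the plus strand for bZIP1, chr2:7898917-7898946 on the minus strand for bZIP2, chr4:16522197-16522226 on the plus strand for bZIP11, chr1:28292051-28292080 on the plus strand for bZIP44 and chr3:23092467-23092496 on the minus strand for bZIP53. All 5 are in the 5′ untranslated region. Set side by side without gaps, 11 of the 30 columns held the same base in all 5 members. bZIP2 and bZIP11 were most alike, with 25 of 30 bases identical, and bZIP1 and bZIP53 least alike, with 17 of 30. The stop codon was TGA in every member but bZIP44, where it was TAA. Without the stop codon the uORFs encode 25 amino acids in bZIP1, 28 in bZIP53, 41 in bZIP2 and in bZIP44, and 42 in bZIP11.

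No S1 member could be given a level. bZIP1 (AT5G49450), a starvation-responsive factor also known for its part in nitrogen signalling, had a count of 0 in all 3 icpk KNO3, all 3 wild type KNO3 and all 3 wild type KCl libraries. So did bZIP11 (AT4G34590), a regulator of amino acid and sugar metabolism that is the best known case of control by the uORF. bZIP2 (AT2G18160) and bZIP44 (AT1G75390), its close relatives, and bZIP53 (AT3G62420), a partner of C group factors at seed storage and proline dehydrogenase genes, were also listed at 0 throughout. In both of the authors' deposited tables of comparisons the base mean of each S1 member was likewise 0, with no fold change.

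These zeros fell on genes with a shared trait of annotation. The count tables held a further row, 2 locus numbers away from each S1 member, that RefSeq does not annotate: AT5G49448 beside bZIP1, AT2G18162 beside bZIP2, AT4G34588 beside bZIP11, AT1G75388 beside bZIP44 and AT3G62422 beside bZIP53. All 5 of these rows were at 0 too. Among protein-coding genes, 43 of the 83 with an annotated uORF had no count in any library (51.8%), against 2983 of the 26629 without one (11.2%). The split followed the extra row. Of the 54 uORF genes with such a row, 42 were at 0 (77.8%), while of the 29 without it 1 was (3.45%), and the median count of those 29 over the 9 libraries was 6265.

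**Figure D1:**
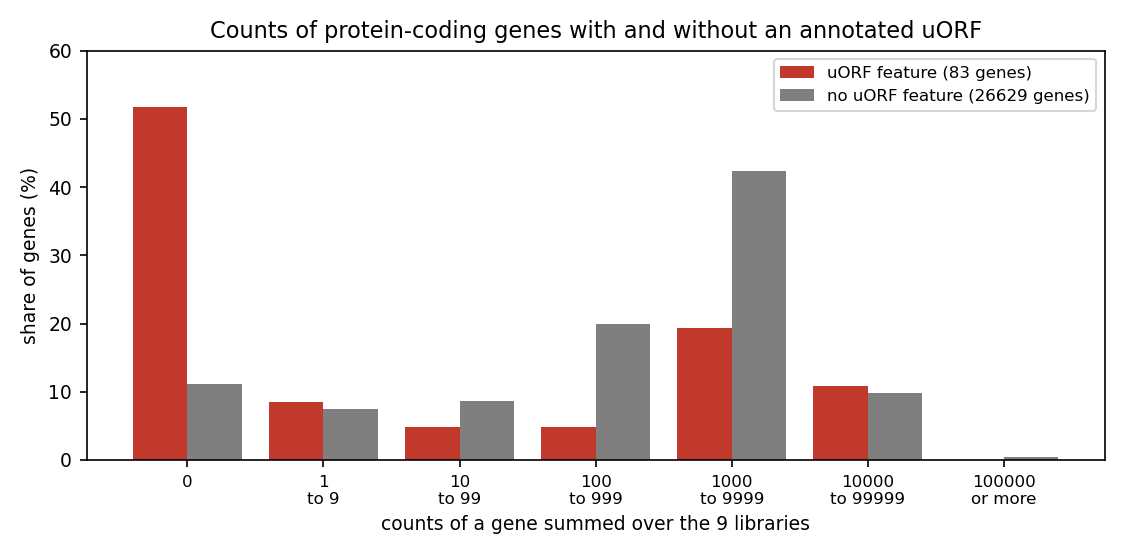
Share of protein-coding genes (%) by the count of a gene summed over the 9 libraries, for genes with a uORF feature in the annotation (red, 83 genes) and without one (grey, 26629 genes); the horizontal bins widen in steps of 10 times. Of the uORF genes, 51.8% stand in the bin at 0, against 11.2% of the others, and the 5 S1 members are among them.

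A value of 0 for an S1 member is therefore given only as listed, with no level, no upper limit and no statement that the transcript was absent. In its usual setting HTSeq, the counting program named for these files, puts a read that lies on 2 annotated genes into a separate row for ambiguous reads, and the setting used is not given in the sources used here. That row held 1.76% to 2.03% of the records on genes in a library. Its part in the S1 zeros was not tested. The C group has no annotated uORF and no extra row, and its members had 3111 to 11460 counts over the 9 libraries.

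Among the C group, bZIP63 was the one member that passed the test in any comparison. It was higher in icpk than in wild type seedlings with KNO3, about 1.89-fold, while bZIP9, bZIP10 and bZIP25 did not pass the test. In the fit without a block, none of the 4 passed in wild type with KNO3 against KCl, nor in icpk with KNO3 against KCl-treated wild type. Levels are CPM, counts scaled to a common library total on TMM-scaled library sizes, and a call is an adjusted p below 0.05 in edgeR's quasi-likelihood test with Benjamini-Hochberg adjustment over the 20288 genes tested.

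bZIP63 (AT5G28770, chr5:10796457-10798305, minus strand) is the SnRK1 substrate of the group and a regulator of the response to low energy. Its level in replicates 1 to 3 was 37.2, 32.4 and 33.3 CPM in icpk with KNO3. It was 21.4, 18.9 and 14.2 CPM in wild type with KNO3. In wild type with KCl it was 31.3, 26.3 and 19.4 CPM. Every icpk library stood above every wild type library of either treatment, and the ranges of both wild type groups overlapped. Replicate 3 was the lowest of both wild type groups but not of icpk.

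With KNO3, the mean was 34.3 ± 2.55 CPM in icpk and 18.2 ± 3.66 CPM in wild type (SD, n = 3 each), a log2 fold change of 0.91 (SE 0.18, 95% interval 0.52 to 1.31, edgeR's quasi-likelihood test adjusted p = 0.00655). The adjusted p ranged from 5.65e-05 to 0.0232 over the alternatives tried, all of them past the threshold. The authors' deposited table gives 0.78 ± 0.22 (SE) with an adjusted p of 0.00423 for this gene and comparison. Thus 1 of the 4 tested members was called, on the higher side, in a comparison where 11.3% of all tested genes were called higher and 11.4% lower. At those rates a single call among 4 genes does not set the C group apart. Libraries of icpk did not overlap those of wild type for bZIP63, in common with 19.8% of tested genes on the higher side, nor those of wild type with KCl, in common with 14.1%.

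**Figure D2:**
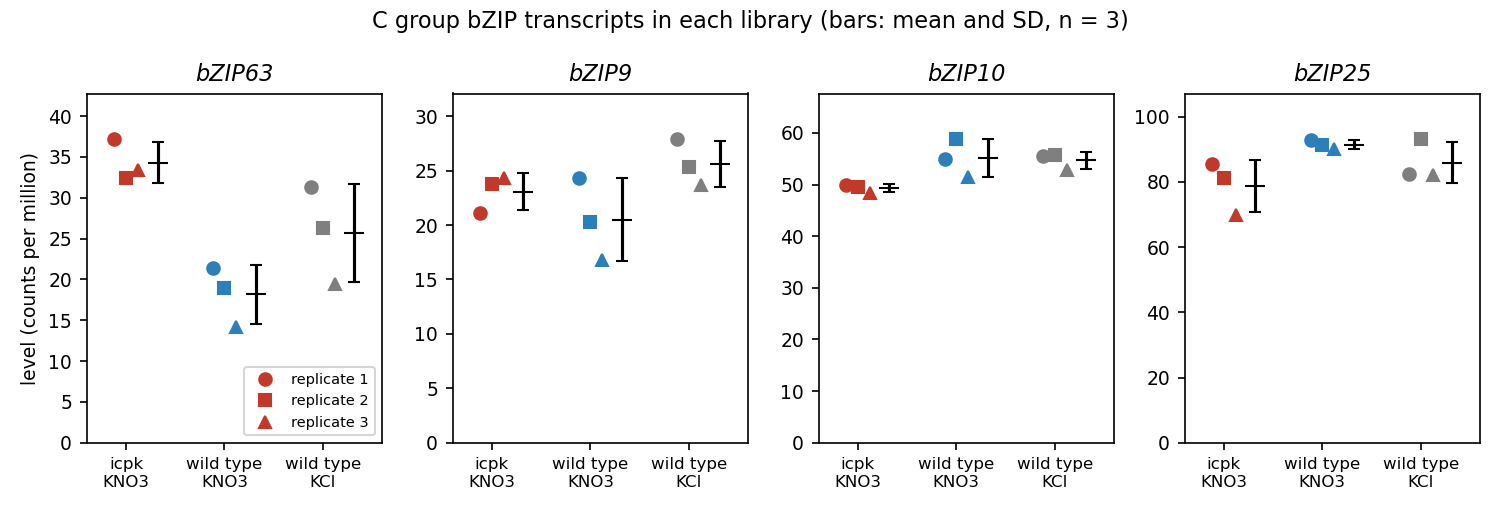
Level of each C group member in CPM (vertical axis, from 0) in each library of icpk with KNO3 (red), wild type with KNO3 (blue) and wild type with KCl (grey); marker shapes are replicates 1 to 3 and black bars are mean ± SD (n = 3). For bZIP63 the icpk libraries lie at 32.4 to 37.2 CPM, above the 14.2 to 21.4 CPM of wild type with KNO3, while the other 3 members lie close between groups.

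Other quantities moved with the same comparison. Root markers were summed to 180.1 to 236.2 CPM in icpk and 258.2 to 321.9 CPM in wild type with KNO3, and 2 of 13 were called, both lower, THAH1 (log2 fold change -1.11) and EXPA7 (-0.78). Shoot photosynthesis markers were summed to 47100 to 73260 CPM in icpk and 34090 to 48700 CPM in wild type with KNO3, and 1 of 15, CAB3 (0.92), was called, on the higher side. DESeq2 called 9 of the 15 higher, and without icpk replicate 2 edgeR called 8 higher and 4 root markers lower. No marker of either list was at 0 throughout. The part of these markers in the difference of bZIP63 was not tested. Without replicate 3 of every group, the lowest libraries of bZIP63 in wild type, its log2 fold change was 0.77 (adjusted p = 0.0229, edgeR).

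Nitrate in wild type gave no call among the C members in the fit without a block. bZIP63 averaged 18.2 ± 3.66 CPM with KNO3 and 25.7 ± 5.96 CPM with KCl (SD, n = 3 each), a log2 fold change of -0.52 (SE 0.18, 95% interval -0.92 to -0.12) with an adjusted p of 0.125 in edgeR's test. bZIP9 had a log2 fold change of -0.33 (SE 0.14, adjusted p = 0.196, edgeR). For both genes the unadjusted p was below 0.05, at 0.0151 and 0.0358, and their libraries overlapped between treatments. bZIP10 and bZIP25 had log2 fold changes of 0.01 (95% interval -0.17 to 0.18) and 0.09 (-0.13 to 0.30). Of the 4 members, 0 were called by edgeR and 0 by DESeq2, where 3.56% of all tested genes were called higher and 2.39% lower by edgeR. Root markers were summed to 258.2 to 321.9 CPM with KNO3 and 231.4 to 289.4 CPM with KCl, and shoot photosynthesis markers to 34090 to 48700 CPM with KNO3 and 54340 to 66450 CPM with KCl. Of the 15 shoot markers 1, CAB3, was called (log2 fold change -1.03). That count moved in 11 of 15 alternatives. DESeq2 called 4 lower and edgeR 3 with wild type KNO3 replicate 2 left out, while edgeR called 0 if any of wild type KNO3 replicates 1 and 3, icpk replicate 1 and the 3 wild type KCl libraries was left out. The part of these markers in the values of bZIP63 was not tested. For bZIP63 the authors' deposited table gives a log2 fold change of -0.42 with an adjusted p of 0.269.

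Both comparisons use the same wild type KNO3 libraries, so a low value there enters the 2 fold changes of bZIP63 with opposite signs. In the comparison that leaves out the wild type KNO3 libraries, bZIP63 was at 34.3 ± 2.55 CPM in icpk with KNO3 and 25.7 ± 5.96 CPM in wild type with KCl. The log2 fold change was 0.39 (SE 0.18, 95% interval -0.001 to 0.78, adjusted p = 0.228, edgeR). No C member was called in this comparison, 0 had an unadjusted p below 0.05 (the lowest was that of bZIP63, 0.0506) and DESeq2 also called 0, while edgeR called 3.15% of all tested genes higher and 3.84% lower. The order of the bZIP63 group means was icpk with KNO3, wild type with KCl, wild type with KNO3, and of the neighbours in that order neither pair passed the threshold in the fit without a block.

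**Figure D3:**
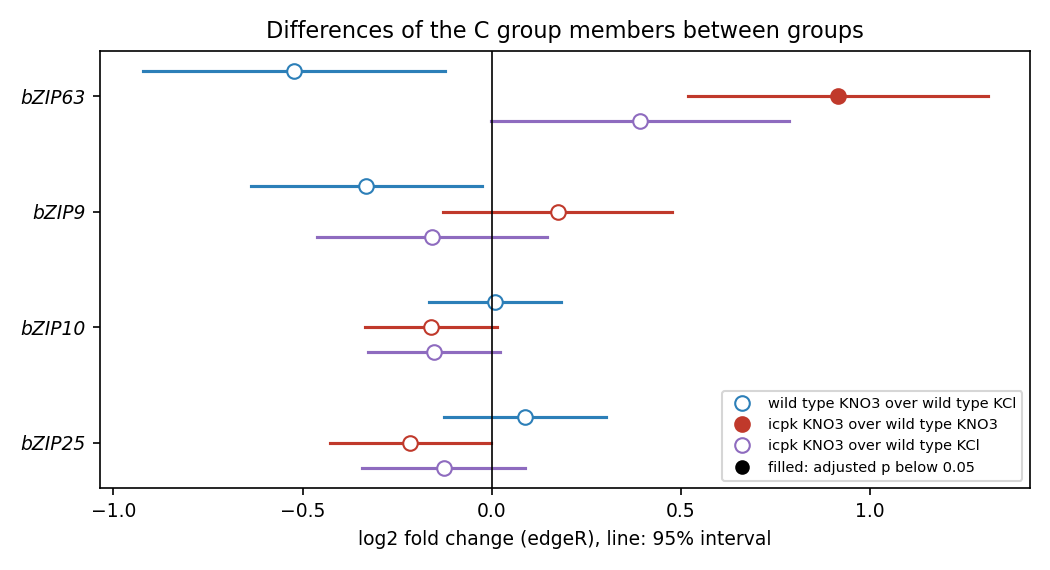
Log2 fold change (edgeR, horizontal axis) with its 95% interval for each C group member in wild type KNO3 over wild type KCl (blue), icpk KNO3 over wild type KNO3 (red) and icpk KNO3 over wild type KCl (purple); a filled point has an adjusted p below 0.05. The filled point is bZIP63 at 0.91 between icpk and wild type with KNO3.

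bZIP9 (AT5G24800, chr5:8515200-8516669, plus strand) is a C group factor active in the phloem. Its level was 21.1, 23.7 and 24.4 CPM in icpk with KNO3, 24.4, 20.3 and 16.8 CPM in wild type with KNO3 and 27.9, 25.3 and 23.6 CPM in wild type with KCl. The ranges overlapped between every pair of groups. Its log2 fold change between icpk and wild type with KNO3 was 0.17 (95% interval -0.13 to 0.48, adjusted p = 0.395, edgeR). The gene overlaps AT5G24810 on the opposite strand by 35 bases, and the kit used does not mark strand, so reads on those bases cannot be told apart.

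bZIP10 (AT4G02640, chr4:1153945-1156356, plus strand), a factor known from seed storage genes and from its retention in the cytosol by the cell death regulator LSD1, varied little within groups. It had 49.9, 49.6 and 48.4 CPM in icpk with KNO3, 55.0, 58.8 and 51.5 CPM in wild type with KNO3 and 55.6, 55.8 and 52.8 CPM in wild type with KCl. All icpk libraries stood below all wild type libraries, by a small margin. Of tested genes, 19.8% had all icpk libraries below wild type with KNO3, and 13.6% below wild type with KCl. The log2 fold change of icpk with KNO3 was -0.16 against wild type with KNO3 (95% interval -0.33 to 0.01, adjusted p = 0.166, edgeR) and -0.15 against wild type with KCl (-0.33 to 0.02, adjusted p = 0.293).

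bZIP25 (AT3G54620, chr3:20217854-20220497, minus strand), a close relative of bZIP10 that also acts on seed storage genes, had 85.4, 81.1 and 69.8 CPM in icpk with KNO3. It had 92.8, 91.2 and 90.1 CPM in wild type with KNO3 and 82.5, 93.1 and 82.1 CPM in wild type with KCl. With KNO3 every icpk library was below every wild type library, in common with 19.8% of tested genes. The log2 fold change was -0.21 (SE 0.10, 95% interval -0.43 to -0.001), with an adjusted p of 0.135 (0.0489 before adjustment) in edgeR's test. Against wild type with KCl it was -0.13 (adjusted p = 0.491), and the icpk and wild type libraries overlapped.

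Levels per kilobase of exon allow the members to be ranked against one another, as far as the lengths used hold. These are unions of exons over all RefSeq transcripts, 1443 bases from 4 transcripts for bZIP63 and 1021 from 1 for bZIP9. The order of these neighbours depends on the lengths. Without the scaling bZIP63 averaged 34.3 CPM and bZIP9 23.1 CPM in icpk with KNO3. In icpk with KNO3 the levels were 46.3 ± 4.73 CPM per kilobase for bZIP25, 28.5 ± 0.469 for bZIP10, 23.8 ± 1.77 for bZIP63 and 22.6 ± 1.68 for bZIP9 (SD, n = 3 each). In wild type with KNO3 they were 53.7 ± 0.79 for bZIP25, 31.8 ± 2.11 for bZIP10, 20.1 ± 3.73 for bZIP9 and 12.6 ± 2.54 for bZIP63. bZIP25 and then bZIP10 led in every group. In wild type with KCl the levels were 50.5 ± 3.67 for bZIP25, 31.6 ± 0.964 for bZIP10, 25.1 ± 2.1 for bZIP9 and 17.8 ± 4.13 for bZIP63. In both wild type groups every bZIP9 value lay above every bZIP63 value, whereas in icpk the values of these neighbours overlapped.

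bZIP63 made up a larger part of the C group transcripts in icpk, while the summed level of the group overlapped between all 3 groups. The 4 members together had 115.9 to 125.4 CPM per kilobase in icpk with KNO3, 108.9 to 124.9 in wild type with KNO3 and 115.3 to 129.9 in wild type with KCl. bZIP63 made up 20.6%, 18.4% and 19.9% of this sum in icpk with KNO3. In KNO3-treated wild type its share was 11.9%, 10.9% and 9.02%, and in KCl-treated wild type 16.7%, 14.0% and 11.7%. The shares of icpk overlapped with neither wild type group. bZIP25 took 35.4% to 40.0% in icpk with KNO3 and 43.6% to 48.6% in wild type with KNO3. In wild type with KCl it took 37.4% to 42.1%, which overlapped with icpk. These shares are descriptions of transcript counts and were not tested apart from the genes. They are computed from the same levels as the fold changes, so they are not a second result. Against wild type with KCl, bZIP63 itself was not called (adjusted p = 0.228, edgeR).

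**Figure D4:**
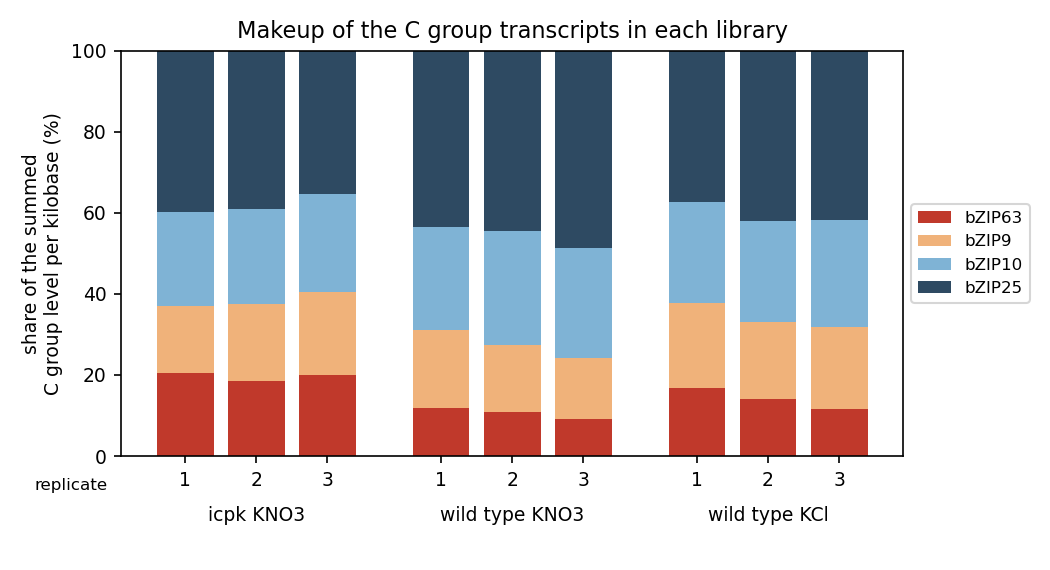
Share (%) of each C group member in the summed level of the 4 members per kilobase of exon, 1 column per library, in icpk with KNO3 (left), wild type with KNO3 (middle) and wild type with KCl (right). The bZIP63 segment takes 18.4% to 20.6% in icpk, against 9.02% to 11.9% in wild type with KNO3.

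The genes whose levels were most like those of bZIP63 over the 9 libraries were found by Pearson's r of log2 CPM, as a description of libraries that share 3 groups. They were AT3G22104 (r = 0.979), AT3G21300 (0.975), PLPB (0.975), AT2G29340 (0.973) and CCB4 (0.970). Over 20284 genes the median r was 0.01 and the 95th percentile 0.836. AT3G22104 averaged 14.7 CPM in icpk with KNO3, 8.75 CPM in wild type with KNO3 and 12.3 CPM in wild type with KCl. Its order of groups was that of bZIP63, but the gene was chosen by its r over these same libraries. That order is therefore no further likeness.

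The SnRK1 kinase complex acts upstream of the C group. Of 8 genes listed for the complex and its activating kinases, 6 were tested, all of them subunits of the complex. In icpk against wild type with KNO3 1 of the 6 was called, which is near the 11.3% of all tested genes called higher. KIN10, a catalytic subunit, had a log2 fold change of -0.16 in icpk against wild type with KNO3 (adjusted p = 0.252, edgeR), and KIN11, the other catalytic subunit, 0.08 (adjusted p = 0.578). KINB1, a beta subunit, was the gene called, with a log2 fold change of 0.54 (adjusted p = 0.0403), and 9 of 15 alternatives lost that call. The list median was -0.11, against 0.01 over all tested genes. Under nitrate in wild type 0 of 6 were called by edgeR or by DESeq2, 0 had an unadjusted p below 0.05, and the median was 0.08. GRIK2, which encodes an activating kinase of SnRK1, was listed at 0 throughout and, like the S1 members, has an annotated uORF and an extra row beside it.

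Genes known as outputs of low-energy signalling, several of them targets of C and S1 pairs, differed more widely. Of 20 such genes 18 were tested, and 13 were called higher and 1 lower in icpk against wild type with KNO3, with a median log2 fold change of 0.67. This stands beside 11.3% and 11.4% of all tested genes and a median of 0.01. Over the 15 alternatives 9 to 14 genes of the list were called higher and 0 to 1 lower. The list was chosen with earlier results of these data known, and these counts are a description. The sums of root and shoot markers given for bZIP63 belong to the same libraries, and their part in these values was not tested either.

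ASN1, the asparagine synthetase gene known as a target of C and S1 factors, had 60.2, 29.3 and 90.6 CPM in icpk with KNO3, 7.82, 11.5 and 4.42 CPM in wild type with KNO3 and 26.4, 47.9 and 29.5 CPM in wild type with KCl. Wild type with KNO3 was the low group, and the other groups overlapped. SEN1, a gene induced by darkness and senescence, had 39.5, 30.0 and 47.3 CPM in icpk with KNO3, 9.88, 9.35 and 3.30 CPM in wild type with KNO3 and 36.5, 32.7 and 26.8 CPM in wild type with KCl, with the same low group. In icpk against wild type with KNO3, the log2 fold change was 2.91 (SE 0.44, adjusted p = 0.00203, edgeR) for ASN1 and 2.36 (SE 0.32, adjusted p = 0.00128) for SEN1.

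The called members of this list with the smallest p in icpk against wild type with KNO3 were SEN5 (log2 fold change 1.85), DIN10, annotated as a raffinose synthase (1.95), MCCA, a subunit of the leucine-degrading methylcrotonoyl-CoA carboxylase (0.88), and DRM2, a dormancy-associated gene (1.69). These 4 and ASN1 and SEN1 were called under all 15 alternatives. The proline dehydrogenase genes are known targets of S1 factors. ProDH1 had 195.8, 156.0 and 180.3 CPM in icpk, against 167.0, 227.1 and 168.5 CPM in wild type with KNO3 (log2 fold change -0.08, adjusted p = 0.735, edgeR). ProDH2, named because it was the 1 gene called lower, had a log2 fold change of -0.997 (adjusted p = 0.0140).

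With nitrate in wild type, 1 of the 18 output genes was called higher and 5 lower, beside 3.56% and 2.39% of all tested genes, with a median of -0.36 against -0.02 over all tested genes. ASN1 had a log2 fold change of -2.12, SEN1 of -2.10 and DRM2 of -0.995, and TPS10, a trehalose-6-phosphate synthase-like gene, was the 1 called higher at 0.63. The other called genes were DIN10 (-0.91) and DIN4 (-0.44), a subunit of the branched-chain keto acid dehydrogenase, named after their values were seen. DIN4 lost its call in 5 of the fits that leave out 1 library (adjusted p up to 0.136, edgeR), and DIN10 in 7 (up to 0.182). SEN1 kept its call when any 1 library was left out. ASN1 lost it without wild type KNO3 replicate 1 (adjusted p = 0.0770, edgeR), wild type KNO3 replicate 3 (0.0620) or wild type KCl replicate 2 (0.0769). DRM2 and TPS10 lost theirs without wild type KNO3 replicate 1 (0.106 and 0.0515) or wild type KCl replicate 2 (0.101 and 0.0588). In place of 5, the number called lower was 1 if either of those libraries was left out, 2 if it was wild type KNO3 replicate 3 and 3 if it was wild type KCl replicate 1. Over all fits that leave out 1 library the number ran from 1 to 7. The wild type KNO3 libraries are shared with the icpk comparison, so the 2 sets of values are not independent.

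**Figure D5:**
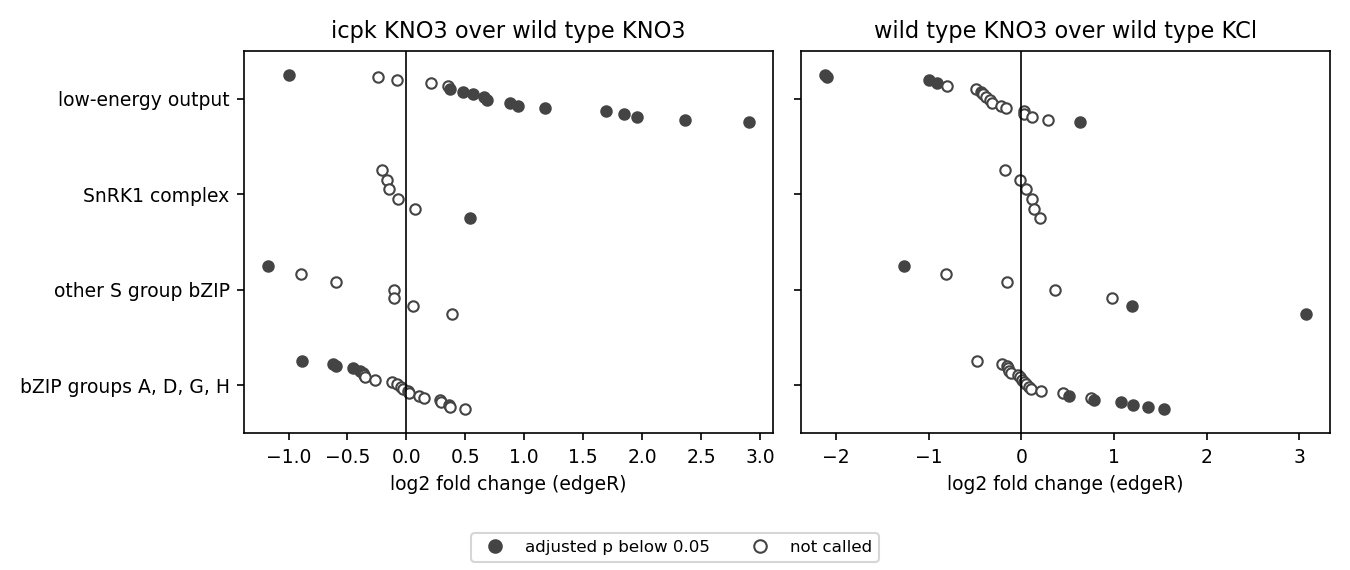
Log2 fold change (edgeR, horizontal axis) of each tested gene in the lists around the C group (rows), for icpk KNO3 over wild type KNO3 (left) and wild type KNO3 over wild type KCl (right); filled points have an adjusted p below 0.05. Among the low-energy output genes 13 filled points lie right of 0 in icpk over wild type with KNO3, while the SnRK1 genes lie within -0.21 to 0.54.

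Other bZIP genes show how the C members stood within the family. Of 12 S group genes outside S1, 7 were tested, and with nitrate in wild type bZIP3 (log2 fold change 3.07) and bZIP5 (1.20) were called higher and bZIP6 (-1.26) lower, where 3.56% of all tested genes were called higher and 2.39% lower. bZIP3 had 30.1, 33.4 and 18.3 CPM in wild type with KNO3, against 3.60, 2.40 and 4.03 CPM in wild type with KCl. In icpk against wild type with KNO3 1 of the 7 was called, bZIP8 at -1.17, and the call was lost without wild type KNO3 replicate 1 (adjusted p = 0.0502, edgeR) or icpk replicate 3 (0.0581). With wild type KNO3 replicate 3 left out, 3 of the 7 were called lower. A count of 1 in 7 is near the 11.4% of all tested genes called lower.

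A chosen list of 22 bZIP genes from groups A, D, G and H was tested in full, and it need not cover these groups. With nitrate in wild type, where 3.56% of all tested genes were called higher, 6 were called, all higher, among them the abscisic acid response factors ABF2 (log2 fold change 1.54) and ABF3 (1.08) and the TGA factors TGA1 (1.37) and TGA4 (1.21). In icpk against wild type with KNO3 1 was called higher, ABF4 (0.36), and 6 lower, among them ABF2 (-0.89), TGA4 (-0.60) and ABF3 (-0.45), beside 11.3% and 11.4% of all tested genes. The number called lower was 3 without icpk replicate 3. It was 2 with all replicate 3 libraries left out, where ABF3 (adjusted p = 0.0632, edgeR) and ABF4 (0.100) lost their calls. The medians were 0.07 and -0.06, close to -0.02 and 0.01 over all tested genes. These comparisons share the wild type KNO3 libraries.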

How the data were processed

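RNA sequencing libraries of 7-day-old seedlings were grouped by their titles into 3 groups of 3, which also number the replicates. The members and gene lists were chosen with earlier results of these data known. For each library the authors deposited raw counts by gene. They also deposited 2 tables of comparisons, which per the file headers give a base mean (a signal averaged from normalized counts), a log2 fold change and its error, a test score and p-values. The submitters' processing notes name TopHat, HTSeq, DESeq2 and the build TAIR10. Versions and the annotation release are not given in the sources here. Coordinates and sequences come from RefSeq's TAIR10.1, whose nuclear chromosomes are those of TAIR10.

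From the counts, 5 summary rows that name no gene, 26.7% to 84.3% of a library, were left out. TMM factors and filterByExpr (minimum count 10) left 20288 genes for edgeR 4.0.16 (R 4.3.3), with a quasi-likelihood test on all 9 libraries, a mean per group and no block, and a threshold of 0.05 on the Benjamini-Hochberg adjusted p. The biological coefficient of variation was 15.1%. Standard errors were derived from the log2 fold change and its F statistic, and intervals cover 95%. The code was tested on simulated data with known changes. All members are named, with up to 4 called genes of each list by smallest p in each main comparison. Levels per kilobase use the union of RefSeq exons. The likeness measure is Pearson's r of log2 CPM. Alternatives were RLE size factors, no filter, DESeq2 1.42.0, the 6 libraries of a comparison alone, a replicate block, and fits without each library or without replicate 3 of every group. Between icpk and wild type with KNO3, deviations of same-numbered libraries correlated at 0.209, 0.124 and 0.337, so the numbers may pair these libraries. The labels do not state a shared culture or day. The main p-values and intervals of this comparison come from the fit without a block, which leaves such a pairing out. The replicate block is given only as an alternative.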

Additional observations from a re-analysis of the deposited data

How the results depend on the processing

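The call of bZIP63 in icpk against wild type with KNO3 kept its direction and its side of the threshold in all 15 alternatives, with log2 fold changes of 0.77 to 1.05, and no other member was called there. The replicate block gave 0.94 (adjusted p = 0.00261, edgeR) and changed no member's call in that comparison. With nitrate in wild type, same-numbered libraries correlated at -0.025, 0.195 and 0.323, which does not settle whether the numbers pair these libraries. The block there made bZIP63 a call (log2 fold change -0.51, adjusted p = 0.0472, edgeR), which raised the members called lower from 0 to 1. The cause was not tested. Without 1 library each, that fold change was -0.66 to -0.35. Values near 0 changed sign for bZIP10 under nitrate, which ran from -0.042 (wild type KNO3 replicate 2 left out) to 0.055 and was -0.005 when wild type KCl replicate 3 was left out, and for bZIP9 in icpk against wild type with KNO3, at -0.001 without replicate 3 of every group.

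Counts over all genes moved more. DESeq2 called 788 genes lower under nitrate, against 485 in the edgeR fit. Without replicate 3 of every group, 176 were called lower under nitrate, 643 higher and 765 lower in icpk against wild type with KNO3 (2286 and 2313 with it), and 282 higher and 194 lower in icpk against KCl-treated wild type (639 and 779 with it); these fits have fewer samples. Leaving out 1 library gave 473 to 846 higher and 125 to 1231 lower under nitrate, 1082 to 2348 higher and 1379 to 2209 lower in icpk against wild type with KNO3, and 354 to 675 higher and 335 to 960 lower in icpk against KCl-treated wild type. Among the output genes under nitrate, DIN10 lost its call in 9 of 15 alternatives. Depth was least in wild type KCl replicate 3, where bZIP63 had 106 counts and bZIP9 129. The S1 members give no limit that depth could set.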
